A study of Mus musculus with 12 samples.

Results

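The transcripts of 10 subunits of the transcription factor AP-1 were followed in mouse oligodendrocyte progenitor cells (OPCs) exposed to quaternary ammonium compounds. The members were taken by name from the 35385 gene symbols listed for each library: the Fos family (Fos, Fosb, Fosl1 and Fosl2), the Jun family (Jun, Junb and Jund), and Batf3, Jdp2 and Atf3, 3 related basic leucine zipper (bZIP) proteins that pair with Jun proteins. AP-1 is a dimer. Jun proteins pair with one another or with a Fos protein, whereas Fos proteins need a Jun partner, and the dimer binds DNA at TGANTCA (N is any base) through the basic regions of both proteins. Fos, Fosb, Jun and Junb are immediate early genes, whose transcription starts minutes after a growth factor, calcium, cAMP or stress signal through factors already present in the cell, and MAP kinases then phosphorylate the proteins. OPCs are the dividing glial cells that mature into the myelin-forming oligodendrocytes of the central nervous system.

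The OPCs were derived from mouse pluripotent stem cells and cultured with Noggin, NT3, cAMP and IGF-1 among the supplements, so cAMP was present in the growth medium of every group. After 1 h of attachment in differentiation-permissive medium, exposure lasted 4 h. Cetylpyridinium chloride (CPC), C12-C14-alkyl(ethylbenzyl)dimethylammonium chloride (AEBDAC) and methyltrioctylammonium chloride (MTOAC) were each given at their own IC75, the concentration that inhibits by 75%, and the controls received the vehicle DMSO. All 4 groups had 3 libraries. The concentrations and the strain, sex and number of stem cell lines are not in the labels. Whether the libraries are separate cultures is not in the labels, and the p-values rest on the spread among these libraries alone, which may be technical.

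Abundance was deposited as TPM, transcript abundance scaled for length and then to a fixed total in each library, which keeps no record of depth beyond a stated minimum of 20 M reads. The cells carried the label's markers: all 10 OPC markers reached 1 TPM in at least 3 libraries, while none of 6 microglial markers did. Of 5 markers each, 4 astrocyte, 4 neuron, 2 oligodendrocyte and 1 pluripotency marker did so too. This level alone therefore does not set OPCs apart from other neural cells. The summed OPC markers lay between 1825 and 1968 TPM with CPC, between 1717 and 1980 TPM with AEBDAC, between 1518 and 1606 TPM with MTOAC and between 2209 and 2579 TPM in vehicle. The sum was thus lower in every compound library than in every vehicle library, and the part of this shift in the AP-1 values was not tested. Olig1 held much of the sum, at 782, 682 and 531 TPM with CPC, AEBDAC and MTOAC against 1194 TPM in vehicle. The mean of Lhfpl3 was higher with all 3, and those of Cspg4 and Cspg5 with CPC and AEBDAC. In the fits below no OPC marker was lower with CPC, 1 was with AEBDAC and 3 were with MTOAC. Of all tested symbols 0.883% were lower with AEBDAC and 5.75% with MTOAC. Of 5 mesenchymal markers only Acta2 passed that level, and Pdgfrb was listed at 0. The mesenchymal sum lay between 36.6 and 75.5 TPM with CPC, 41.0 and 91.4 TPM with AEBDAC, 46.8 and 82.2 TPM with MTOAC and 33.0 and 50.6 TPM in vehicle, and its part was not tested either. Vehicle library 1 stood apart, with mt-Nd3 listed at 0 against 8716 to 13261 TPM in the other 11 libraries and a mean correlation of 0.917 with them. Values without it are given beside the calls of the members.

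AP-1 transcripts were mainly Jund and Jun. Jund, the constitutive Jun protein, averaged 149 ± 4.94 TPM with CPC, 183 ± 3.74 TPM with AEBDAC, 152 ± 36.4 TPM with MTOAC and 135 ± 36.7 TPM in vehicle (SD, n = 3 each), and in vehicle it ranked 686th from the highest of 12009 tested symbols. Jun came next in all 4 groups, and the libraries of Jund and Jun did not overlap within any group. The third place was held by Fos in all 3 compound groups and by Jdp2 in vehicle. In vehicle the libraries of Jdp2 overlapped those of Fos, those of Fos lay above those of Junb, and those of Junb, Batf3 and Fosb overlapped from neighbour to neighbour. In the AEBDAC and MTOAC groups the lowest Fos library lay above every library of the members ranked below it, whereas with CPC Fos and Jdp2 overlapped.

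**Figure D1:**
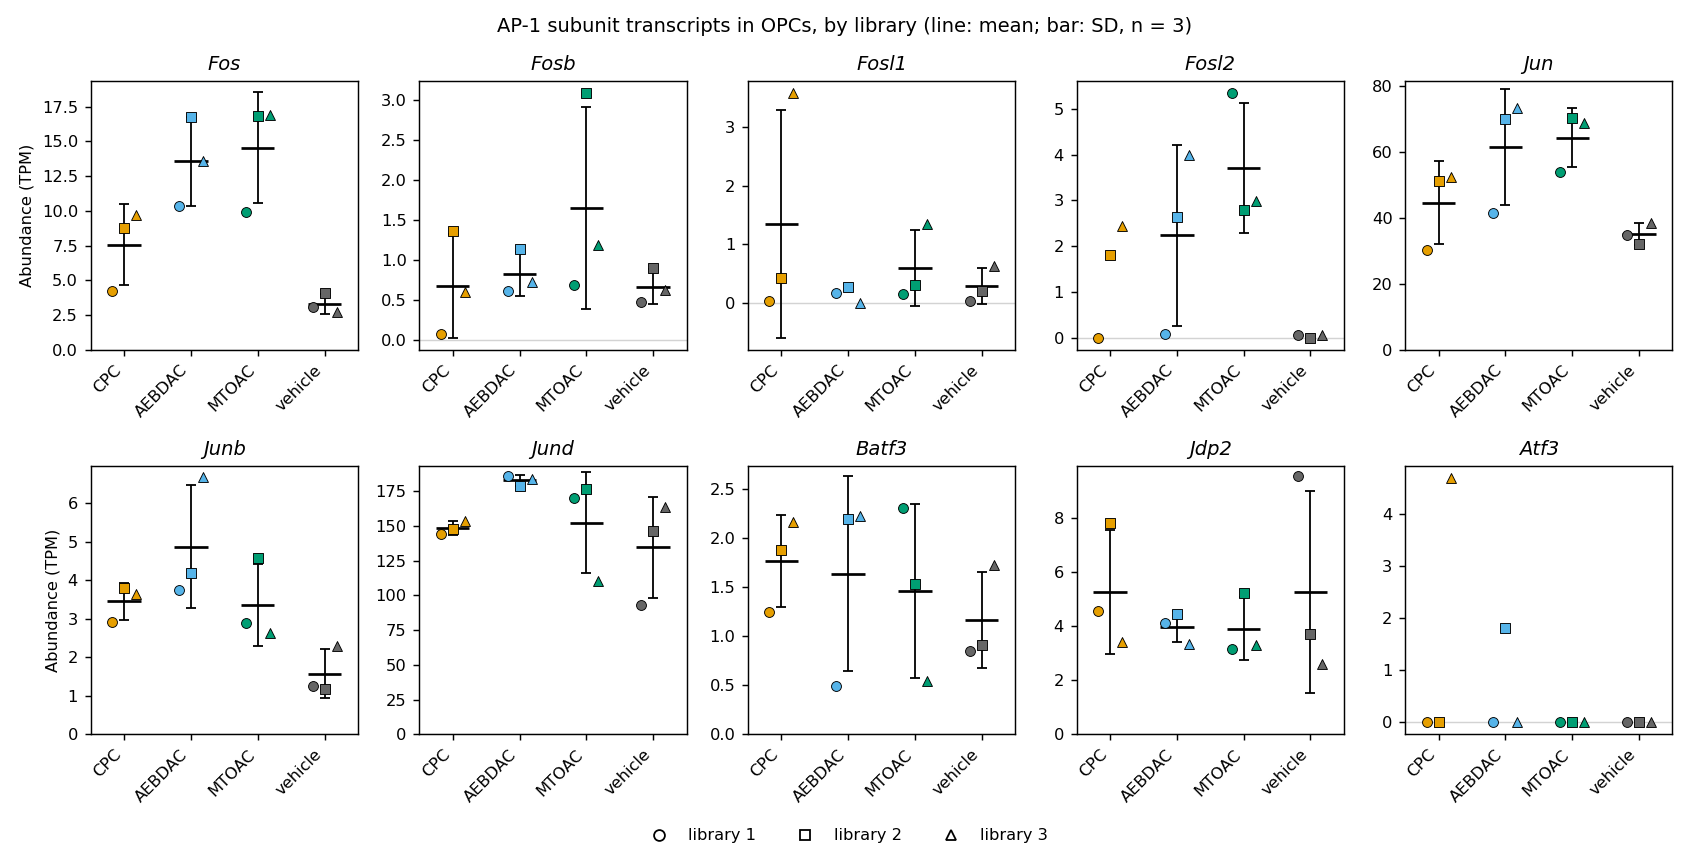
Abundance in TPM of the 10 AP-1 subunits in each library (circle, square and triangle for libraries 1, 2 and 3), with the group mean as a line and the SD as a bar (n = 3), both left out for a group in which a library is listed at 0. All Fos libraries exposed to a compound lie between 4.23 and 16.9 TPM, above the vehicle libraries at 2.70 to 4.10 TPM; Atf3 is above 0 in only 2 libraries.

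Fos, the founding member of its family, was higher in every compound library than in every vehicle library. It stood at 4.23, 8.75 and 9.71 TPM with CPC, at 10.4, 16.8 and 13.6 TPM with AEBDAC, at 9.94, 16.8 and 16.9 TPM with MTOAC, and at 3.09, 4.10 and 2.70 TPM in vehicle. The lowest value of each compound group was library 1, and CPC library 1 exceeded the highest vehicle library by little. Differences were tested with limma on log2(TPM + 1) over the 12009 symbols that reached 1 TPM in 3 or more libraries, at an adjusted p under 0.05. This scale understates the change of low genes, and in such bulk libraries fewer cells of a type and less RNA per cell cannot be told apart. Fos rose by 1.75 ± 0.30 log2 with AEBDAC (SE; 95% interval 1.08 to 2.42, adjusted p = 0.032 by limma) and by 1.83 ± 0.30 with MTOAC (1.16 to 2.50, adjusted p = 0.0119). With CPC the difference of 0.94 ± 0.30 did not pass (0.27 to 1.61, adjusted p = 0.239). Counted from the highest of all tested symbols, the Fos difference ranked 110th with CPC, 26th with AEBDAC and 29th with MTOAC. The median symbol itself stood 0.17, 0.16 and 0.22 log2 below vehicle with CPC, AEBDAC and MTOAC, and relative to it the Fos differences were 1.11, 1.91 and 2.05.

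The call for MTOAC held without vehicle library 1 (1.80 log2, adjusted p = 0.0332), whereas that for AEBDAC did not (1.72 log2, adjusted p = 0.0889). The AEBDAC call was also lost without vehicle library 2 or 3 or AEBDAC library 2 or 3, with adjusted p between 0.0754 and 0.163 over these 5 fits.

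Fos lies on chromosome 12 at 85473890 to 85477273 on the plus strand (GRCm38, the assembly of mm10; GENCODE M21), with 3 to 4 exons per transcript. Its promoter window, 250 bases before to 50 bases after the RefSeq start, is shown because Fos is the member with the most calls and because its control through such elements is well described. The window is chr12:85473640-85473939 on the plus strand of GRCm38.p6, from RefSeq, and capitals mark TGACG, the core of the cAMP response element, and the TATAA box.
Fos promoter: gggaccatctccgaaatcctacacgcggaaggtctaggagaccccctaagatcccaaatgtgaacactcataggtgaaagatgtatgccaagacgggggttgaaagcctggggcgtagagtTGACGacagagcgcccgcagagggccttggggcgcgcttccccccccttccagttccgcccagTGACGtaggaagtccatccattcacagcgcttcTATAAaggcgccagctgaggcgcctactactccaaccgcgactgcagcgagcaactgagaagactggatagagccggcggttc
With the start site counted as 0, TGACG begins at -129 and -66 and TATAA at -33, all on the strand of the gene. Of 32851 RefSeq promoter windows of 300 bases, 20.8% held TGACG and 24.9% held TATAA on either strand. The full cAMP response element TGACGTCA, which contains TGACG, was in 1.79% of windows, the AP-1 site TGANTCA in 7.81% and the CArG box, which serum response factor binds, in 1.63%. These 3 motifs were in none of the 11 windows listed for 9 members (Fosl1 had none), which says nothing of elements outside the windows.

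The transcripts of the other Fos proteins were far less abundant, and Fosl2 was near 0 in vehicle. Fosl2 (FRA2), which lacks the transactivation domain of Fos, was listed at 0, 1.80 and 2.44 TPM with CPC, at 0.0850, 2.63 and 3.99 TPM with AEBDAC, at 5.34, 2.78 and 2.99 TPM with MTOAC, and at 0.0469, 0 and 0.0574 TPM in vehicle. All 3 MTOAC libraries were above 2 TPM, library 1 was near 0 with CPC and AEBDAC, and every vehicle library was near 0. It passed the filter only through the compound groups, with no vehicle library at 1 TPM, so a called difference from vehicle could only be upward and is given as a description. The log2(TPM + 1) difference was 2.14 ± 0.57 with MTOAC (95% interval 0.89 to 3.40, adjusted p = 0.0482 by limma), 1.38 ± 0.57 with AEBDAC (adjusted p = 0.218) and 1.04 ± 0.57 with CPC (adjusted p = 0.451). The MTOAC call was lost when any 1 of its 6 libraries was left out (adjusted p between 0.0737 and 0.131, with 0.114 without vehicle library 1). It grew to 4.78 log2 with a pseudocount of 0.1 in place of 1, and so no fold against the vehicle values near 0 is given.

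Fosb and Fosl1 had no call. Fosb, an immediate early partner of Jun with a stable splice form known in neurons, was at 0.0708, 1.36 and 0.601 TPM with CPC, 0.612, 1.14 and 0.719 TPM with AEBDAC, 0.685, 3.09 and 1.19 TPM with MTOAC, and 0.475, 0.901 and 0.631 TPM in vehicle. It too passed the filter only through compound libraries. Its ranges overlapped those of vehicle in all 3 groups, and its differences were -0.06, 0.12 and 0.57 log2 with CPC, AEBDAC and MTOAC (SE 0.38; adjusted p = 0.966, 0.894 and 0.38 by limma). Fosl1 (FRA1), known as a target of AP-1 itself, reached 1 TPM in 2 of 12 libraries and was not tested. It was listed at 0.0373, 0.432 and 3.58 TPM with CPC, 0.162, 0.277 and 0 TPM with AEBDAC, 0.146, 0.306 and 1.35 TPM with MTOAC and 0.0359, 0.203 and 0.636 TPM in vehicle. In CPC, MTOAC and vehicle alike the library numbered 3 was its highest. Of the exonic bases of Fosl1, 1163 lie within the span of Ccdc85b on the other strand, whose own exons were not compared. The kit is not described as marking strand, so reads of both genes could not be told apart where their exons overlap.

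Jun, the first oncogene of its family and a target of the JNK kinases, stood at 30.1, 51.1 and 52.5 TPM with CPC, at 41.3, 69.8 and 73.1 TPM with AEBDAC, at 53.8, 70.2 and 68.7 TPM with MTOAC, and at 34.6, 32.0 and 38.4 TPM in vehicle. Library 1 was the lowest of each compound group, as for Fos and Fosb. All AEBDAC and MTOAC libraries lay above all vehicle libraries, and CPC library 1 lay below them. The differences were 0.30 ± 0.25 log2 with CPC (adjusted p = 0.618), 0.75 ± 0.25 with AEBDAC (95% interval 0.21 to 1.30, adjusted p = 0.138) and 0.85 ± 0.25 with MTOAC (0.31 to 1.39, adjusted p = 0.0629), and none passed in limma. Jun is a gene of 1 exon on chromosome 4 (95049034 to 95052222, minus strand). Of its bases, 689 lie within the span of the antisense gene Junos, introns included, which is not analysed here.

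Junb, a Jun protein that often restrains growth, was higher in every compound library than in every vehicle library. It was at 2.91, 3.81 and 3.65 TPM with CPC, at 3.75, 4.18 and 6.69 TPM with AEBDAC, at 2.88, 4.58 and 2.63 TPM with MTOAC, and at 1.24, 1.17 and 2.30 TPM in vehicle. Against vehicle the differences were 0.82 ± 0.27 log2 with CPC, 1.19 ± 0.27 with AEBDAC and 0.76 ± 0.27 with MTOAC (adjusted p = 0.252, 0.0633 and 0.114 by limma), so that no single compound passed. Junb lies on chromosome 8 (84974484 to 84978718, minus strand). Of its exonic bases, 173 lie within the span of Prdx2, whose own exons were not compared. Prdx2 was far more abundant, at 236 ± 12.2 TPM with CPC, 223 ± 16.3 TPM with AEBDAC, 246 ± 38.7 TPM with MTOAC and 308 ± 145 TPM in vehicle. The ranges of Prdx2 overlapped between all groups, with 193 to 471 TPM in vehicle, and the part of its reads in the Junb values was not tested.

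Jund stood at 144, 148 and 154 TPM with CPC, at 186, 179 and 184 TPM with AEBDAC, at 170, 176 and 111 TPM with MTOAC, and at 93.5, 146 and 164 TPM in vehicle. The AEBDAC libraries lay above all others of this gene, and the lowest vehicle value was library 1. The differences were 0.18 ± 0.21 log2 with CPC, 0.48 ± 0.21 with AEBDAC and 0.19 ± 0.21 with MTOAC (adjusted p = 0.743, 0.243 and 0.632 by limma). Without vehicle library 1 they were -0.06, 0.24 and -0.05 log2, so the sign turned for CPC and MTOAC. The span of the antisense gene Gm11175, not analysed here, covers 919 bases of Jund, also a gene of 1 exon (chromosome 8, 70698949 to 70700616, plus strand).

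The promoter windows of Jun and Junb are set beside that of Fos because these genes are likewise described as immediate early genes. They are chr4:95052173-95052472 and chr8:84978699-84978998, both on the minus strand of GRCm38.p6, from RefSeq. Capitals mark CCAAT, TGACATCA (the variant AP-1 site described for Jun) and the MEF2 box in Jun, and in Junb TGACG, the CCAAT box and the TATAA box.
Jun promoter: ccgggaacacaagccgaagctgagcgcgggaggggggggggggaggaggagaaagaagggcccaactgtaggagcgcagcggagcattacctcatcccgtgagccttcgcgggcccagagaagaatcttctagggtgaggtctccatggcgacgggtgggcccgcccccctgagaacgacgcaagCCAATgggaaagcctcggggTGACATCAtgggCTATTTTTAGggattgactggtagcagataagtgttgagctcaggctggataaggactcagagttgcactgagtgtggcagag
Junb promoter: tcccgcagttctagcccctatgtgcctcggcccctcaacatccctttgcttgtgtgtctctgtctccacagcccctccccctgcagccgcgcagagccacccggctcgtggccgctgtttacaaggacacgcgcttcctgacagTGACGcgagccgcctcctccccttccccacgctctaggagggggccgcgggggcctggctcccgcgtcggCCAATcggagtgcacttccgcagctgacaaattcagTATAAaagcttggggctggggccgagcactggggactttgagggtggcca
In Jun, CCAAT begins at -65, TGACATCA at -45 and the MEF2 box at -33. In Junb, TGACG begins at -106, CCAAT at -36 and TATAA at 0, since the RefSeq start of Junb lies 30 bases upstream of the start in GENCODE. Over all 32851 windows and both strands, CCAAT was in 37.4%, TGACATCA in 3.62% and the MEF2 box in 3.19%. Of the 11 member windows TGACG was in 5, CCAAT in 3, TATAA and the MEF2 box in 2 each (the MEF2 box in Jun and Atf3) and TGACATCA in 1, which is a description of these letters and not of bound factors.

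The 3 related bZIP genes had no call. Batf3, known for its role in dendritic cells, was at 1.25, 1.88 and 2.16 TPM with CPC, 0.490, 2.19 and 2.22 TPM with AEBDAC, 2.30, 1.53 and 0.540 TPM with MTOAC, and 0.852, 0.913 and 1.73 TPM in vehicle, with overlapping ranges throughout. Jdp2, a repressor that pairs with Jun, was at 4.55, 7.81 and 3.40 TPM with CPC, 4.11, 4.46 and 3.34 TPM with AEBDAC, 3.16, 5.23 and 3.32 TPM with MTOAC, and 9.54, 3.71 and 2.59 TPM in vehicle. Its highest value of all was vehicle library 1. The log2 differences with CPC, AEBDAC and MTOAC were 0.36, 0.22 and 0.14 for Batf3 (SE 0.38; adjusted p = 0.708, 0.791 and 0.864 by limma). For Jdp2 they were 0.09, -0.18 and -0.22 (SE 0.39; adjusted p = 0.943, 0.839 and 0.775), and they turn sign with the scaling or the library left out. Atf3, a stress-induced factor, was listed at 0 in all libraries except CPC library 3 at 4.69 TPM and AEBDAC library 2 at 1.81 TPM, and was not tested. The levels of Atf3 thus differed between libraries of 1 group by more than between groups.

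Over the 10 members, 8 could be tested. With CPC none passed (limma; 1634 of all 12009 symbols had an unadjusted p under 0.05), where 0.0666% of all tested symbols were called (0.0333% upward and 0.0333% downward). CPC and vehicle libraries of the same number deviated together, and with that number as a block 184 symbols were called in place of 8, still with none of the members. With AEBDAC 1 passed (Fos), where 1.27% were called in either direction and 0.391% upward. With MTOAC 2 passed (Fos and Fosl2), where 6.54% were called in either direction and 0.791% upward. Fosl2, Fosb and Batf3 (vehicle median 0.913 TPM) were tested only because of their compound libraries. The counts that include Fosl2, those without overlap too, are therefore not set against these shares. Among the other tested members (Fos, Jun, Junb, Jund and Jdp2) Fos alone passed. Of these members, the ranges of Fos and Junb lay above vehicle without overlap with CPC, as did those of 2.58% of all tested symbols. With AEBDAC those of Fos, Jun, Junb and Jund did so, where 5.65% of all did. With MTOAC those of Fos, Jun and Junb did so, where 3.99% of all did. Fosl2 also lay above vehicle with AEBDAC and MTOAC, which is given as a description only. The exact permutation test over 3 and 3 libraries has a smallest p of 0.1, so it was not used for calls.

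**Figure D2:**
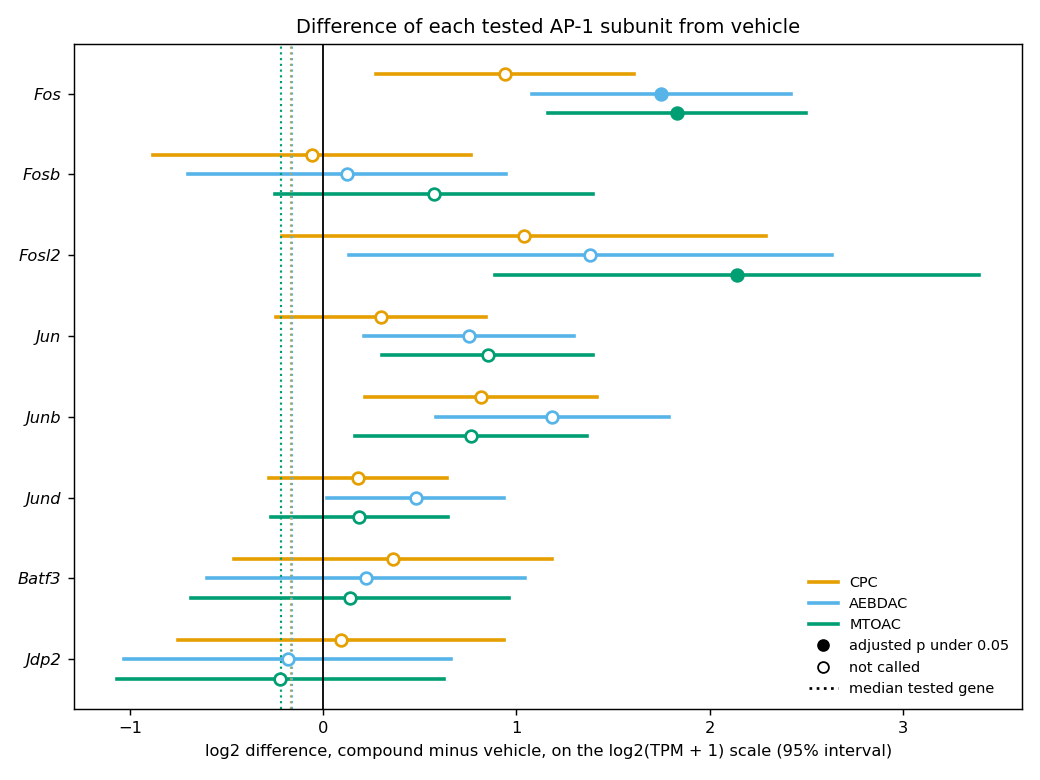
Fitted log2 difference of each tested AP-1 subunit, compound minus vehicle, on the log2(TPM + 1) scale with its 95% interval; filled points passed an adjusted p under 0.05 and dotted lines mark the median of all tested symbols. Fos is filled for AEBDAC (1.75) and MTOAC (1.83) and Fosl2 for MTOAC (2.14), while the CPC point of Fos (0.94) is open.

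Set as the mean of the 3 compound groups against vehicle, 2 members rose, Fos and Junb, where 7.66% of all tested symbols were called in either direction and 1.11% upward. Fos differed by 1.51 ± 0.25 log2 (95% interval 0.96 to 2.05, adjusted p = 0.0103 by limma) and Junb by 0.92 ± 0.22 (0.43 to 1.41, adjusted p = 0.0327). For both genes all 9 compound libraries lay above all 3 vehicle libraries, as did those of 1.34% of all tested symbols. Jun differed by 0.63 ± 0.20 (adjusted p = 0.0779) and Fosl2 by 1.52 ± 0.47 (adjusted p = 0.0676), both short of the threshold, and both passed without CPC library 1 or AEBDAC library 1 (adjusted p between 0.0232 and 0.0368). Fosl2 was at 0 TPM in CPC library 1 and 0.0850 TPM in AEBDAC library 1. It passed the filter only through the compound groups, so a call could only be upward and its values here are a description. Without vehicle library 1 Fos still passed (1.48 log2, adjusted p = 0.0451) and Junb did not (0.84 log2, adjusted p = 0.134). The Junb call was also lost without vehicle library 2 (adjusted p = 0.106) and without library 2 or 3 of CPC or AEBDAC or library 2 of MTOAC (between 0.0512 and 0.0611). This contrast and the single ones share the same vehicle libraries.

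Summed over a family, Jun transcripts exceeded Fos transcripts in every library, by a smaller ratio in the AEBDAC and MTOAC groups. The Fos family summed to 11.0 ± 6.11 TPM with CPC, 16.8 ± 4.96 TPM with AEBDAC, 20.5 ± 3.82 TPM with MTOAC and 4.29 ± 0.813 TPM in vehicle (SD, n = 3). The Jun family summed to 197 ± 17.2, 249 ± 16.6 and 220 ± 35.2 TPM with CPC, AEBDAC and MTOAC and to 171 ± 38.3 TPM in vehicle. The ratio of Jun to Fos family ranged from 12.9 to 40.8 with CPC, 12.2 to 20.6 with AEBDAC, 8.11 to 14.1 with MTOAC and 34.5 to 50.8 in vehicle. Only the CPC range overlapped that of vehicle, through CPC library 1. Fos made up 76.0 ± 19.5% of its family with CPC, 82.4 ± 9.19% with AEBDAC, 70.1 ± 7.34% with MTOAC and 76.9 ± 8.95% in vehicle. Jund made up 75.8 ± 4.78%, 73.6 ± 5.96% and 68.7 ± 7.25% of the Jun family with CPC, AEBDAC and MTOAC and 78.0 ± 4.99% in vehicle. The shares of Fos and Jund overlapped between all groups. Junb made up 1.64 to 1.88% of the Jun family with CPC, 1.62 to 2.54% with AEBDAC and 1.27 to 1.82% with MTOAC, all above the 0.650 to 1.13% in vehicle. Since the members were chosen with earlier results known, the sums carry no test.

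**Figure D3:**
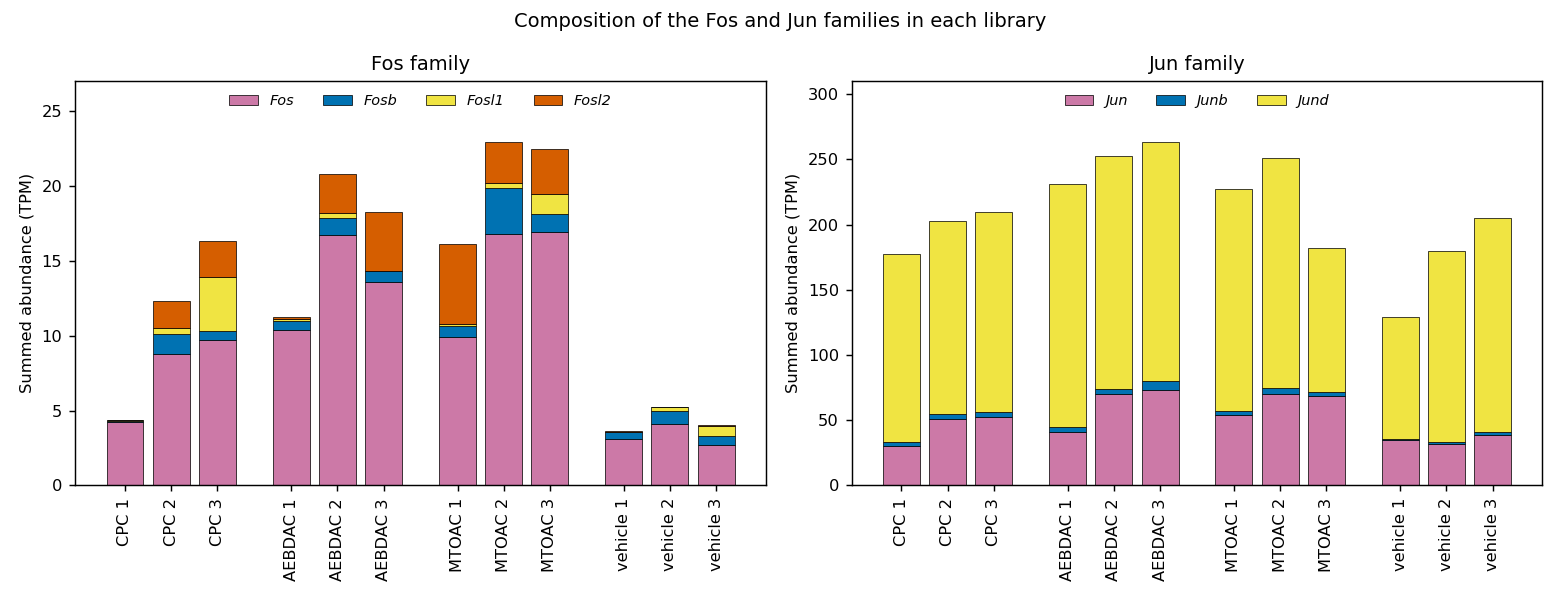
Stacked abundance in TPM of the Fos family (left) and the Jun family (right) in each of the 12 libraries. The Fos sum is at most 5.21 TPM in vehicle and at least 11.2 TPM in the AEBDAC and MTOAC libraries, with CPC library 1 at 4.34 TPM; Jund is the tallest segment of every Jun bar.

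The compounds differ in structure by name: CPC has a pyridinium ring on a long cetyl chain, AEBDAC a benzyl-type group on an ammonium with 1 long chain, and MTOAC several octyl chains. All had the same exposure time and the same stated level of inhibition, but not a stated concentration. None of the 8 tested members differed in any of the 3 pairs of compounds, and no symbol of 12009 did (limma, percent called 0; 211, 449 and 307 symbols had an unadjusted p under 0.05 for AEBDAC against CPC, MTOAC against CPC and MTOAC against AEBDAC). All adjusted p of the members were 1. For Fos the difference was 0.81 log2 for AEBDAC against CPC (95% interval 0.14 to 1.48), 0.89 for MTOAC against CPC (0.22 to 1.56) and 0.08 for MTOAC against AEBDAC (-0.59 to 0.75). All AEBDAC and MTOAC libraries of Fos lay above all CPC libraries, as did those of 4.02% and 2.26% of all symbols. The Jun difference was 0.45 log2 for AEBDAC against CPC (-0.092 to 0.996), 0.55 for MTOAC against CPC (0.01 to 1.09) and 0.10 for MTOAC against AEBDAC (-0.45 to 0.64). The Fosl2 difference was 0.34 (-0.91 to 1.60), 1.10 (-0.15 to 2.36) and 0.76 log2 (-0.49 to 2.01) for the same pairs. For Junb and Jund, MTOAC against AEBDAC gave -0.42 (-1.02 to 0.18) and -0.29 log2 (-0.75 to 0.17), and the Jund libraries of MTOAC all lay below those of AEBDAC, as did those of 5.61% of all symbols. These intervals are wide, and a p that misses the threshold does not show that the compounds act alike.

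The transcription factors that act on early gene promoters included 1 that rose with AEBDAC and MTOAC, Srf. Serum response factor, which Srf encodes, binds the CArG box. It averaged 73.5 ± 17.2 TPM with CPC, 105 ± 19.5 TPM with AEBDAC, 114 ± 36.3 TPM with MTOAC and 29.4 ± 9.99 TPM in vehicle (SD, n = 3), and every compound library lay above every vehicle library. The difference was 1.83 ± 0.28 log2 with AEBDAC (adjusted p = 0.0195 by limma) and 1.92 ± 0.28 with MTOAC (adjusted p = 0.00677), and 1.31 ± 0.28 with CPC did not pass (adjusted p = 0.12). The MTOAC call held whichever library was left out, whereas the AEBDAC call was lost without vehicle library 2 or 3 or AEBDAC library 2 or 3 (adjusted p between 0.0568 and 0.119). Of 13 listed genes 11 were tested, and the 10 others passed with no single compound. Of all tested symbols 0.391% were called upward with AEBDAC and 0.791% with MTOAC. Over the 3 compounds together Srf and Mef2d rose, where 1.11% of all tested symbols were called upward. Mef2d is named because it completes the count, after its value was seen. The list's median difference was -0.14, -0.03 and 0.03 log2 with CPC, AEBDAC and MTOAC, against -0.17, -0.16 and -0.22 over all tested symbols.

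Among the transcripts of kinases upstream of AP-1 the only calls were downward. Of 32 listed genes of the ERK, JNK, p38 and ERK5 cascades 28 were tested, none passed with CPC or AEBDAC (limma) and 4 were lower with MTOAC, where 5.75% of all tested symbols were called downward. Map3k12 and Map3k11, kinases that feed JNK signalling (DLK and MLK3), averaged 7.02 ± 0.425 and 9.65 ± 1.17 TPM with MTOAC, against 13.3 ± 1.35 and 18.9 ± 4.42 TPM in vehicle. They fell by 0.83 and 0.89 log2 (adjusted p = 0.0146 and 0.0256). Mapk7, which encodes ERK5, averaged 14.3 ± 0.679 TPM with MTOAC, against 27.0 ± 3.92 TPM in vehicle (-0.86 log2, adjusted p = 0.0182), and Map2k3, named to complete the count, was the fourth. The calls of Map3k12, Mapk7 and Map3k11 were lost with quantile normalization and with median centring (adjusted p between 0.0529 and 0.142), 2 scalings that remove the downward shift of the median symbol. All 3 were also lost without MTOAC library 2 (adjusted p between 0.0507 and 0.0684), Mapk7 without vehicle library 2 or 3 or MTOAC library 1, and Map3k11 without vehicle library 3 or MTOAC library 1 or 3 (between 0.0508 and 0.0716). The list's median was -0.21, -0.23 and -0.26 log2 with CPC, AEBDAC and MTOAC, within 0.07 of the median of all symbols.

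Among other bZIP partners 8 of 12 were tested and 1 rose, Atf4, the translation-controlled factor of the integrated stress response, which can dimerize with Fos and Jun. It averaged 336 ± 62.8 TPM with CPC, 423 ± 36.5 TPM with AEBDAC, 366 ± 65.4 TPM with MTOAC and 176 ± 43.8 TPM in vehicle. The calls were for AEBDAC (1.29 log2, adjusted p = 0.0207 by limma) and MTOAC (1.07, adjusted p = 0.0162), where 0.391% and 0.791% of all tested symbols were called upward. The first was lost without vehicle library 1 or 2 or AEBDAC library 2 or 3 (adjusted p between 0.0511 and 0.135) and the second without MTOAC library 2 (0.064). The list's median was 0.02, 0.16 and 0.06 log2 with CPC, AEBDAC and MTOAC, against the all-symbol medians given above. None of the 6 genes for turnover of Fos and Jun proteins passed with any compound. Of these Cops5 (JAB1, a coactivator of Jun) averaged 109 ± 2.34 TPM with CPC, 120 ± 14.3 TPM with AEBDAC, 119 ± 15.6 TPM with MTOAC and 128 ± 38.8 TPM in vehicle. Cop1, a ubiquitin ligase for Jun, averaged 92.1 ± 4.92, 90.2 ± 5.01 and 75.3 ± 3.40 TPM with CPC, AEBDAC and MTOAC and 70.8 ± 8.59 TPM in vehicle. The turnover list's median was -0.18, -0.10 and -0.14 log2.

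Few of the genes described elsewhere as AP-1 targets were called. Of 32 listed 18 were tested, and none passed with CPC, 1 rose with AEBDAC, and 2 rose and 1 fell with MTOAC (limma). Of all tested symbols 0.391% were called upward with AEBDAC, and 0.791% upward and 5.75% downward with MTOAC, so that 1 downward call among 18 is close to the share over all symbols. Hmox1, which encodes haem oxygenase 1, averaged 72.1 ± 11.2 TPM with CPC, 87.2 ± 13.5 TPM with AEBDAC, 83.4 ± 10.2 TPM with MTOAC and 46.8 ± 8.62 TPM in vehicle, and rose with AEBDAC (0.89 log2, adjusted p = 0.0406) and MTOAC (0.83, adjusted p = 0.0242). Hbegf, an EGF receptor ligand, averaged 74.6 ± 25.5 TPM with MTOAC, against 27.3 ± 7.03 TPM in vehicle (1.39 log2, adjusted p = 0.0345). Bcl2l11, which encodes the pro-apoptotic protein BIM, fell to 2.76 ± 0.402 TPM with MTOAC, against 7.11 ± 1.59 TPM in vehicle (-1.10 log2, adjusted p = 0.04). All these calls were lost without vehicle library 1 (adjusted p between 0.0688 and 0.116) and without vehicle library 2 (between 0.0615 and 0.0974). With each of the 6 libraries left out in turn, Bcl2l11 with MTOAC was called in 0 of 6 fits, Hbegf with MTOAC and Hmox1 with AEBDAC in 1 of 6 each, and Hmox1 with MTOAC in 3 of 6. The list's median was 0.12, 0.34 and 0.21 log2 with CPC, AEBDAC and MTOAC. Hmox1 is also a target of NRF2, so the list is not specific to AP-1.

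Other immediate early genes were led by Nr4a1 and Npas4. Nr4a1, an orphan nuclear receptor, stood between 29.1 and 46.5 TPM with CPC, 63.6 and 67.7 TPM with AEBDAC, 56.3 and 60.9 TPM with MTOAC and 12.3 and 17.1 TPM in vehicle. Its difference of 1.32 log2 with CPC (adjusted p = 0.0246 by limma) was the list's only call there, and it was lost when any library but CPC library 1 was left out (adjusted p between 0.0558 and 0.166). Npas4, induced by calcium in neurons, averaged 4.86 ± 1.58 TPM with CPC, 8.68 ± 1.98 TPM with AEBDAC, 8.69 ± 2.17 TPM with MTOAC and 0.810 ± 0.214 TPM in vehicle. Both genes rose with AEBDAC and MTOAC, also with any single library left out. Npas4 had a vehicle median of 0.844 TPM and passed the filter only through the compound groups, so its calls are given as a description. Btg2, an antiproliferative early gene, went the other way, with 32.1 ± 13.4 TPM with MTOAC, against 133 ± 17.5 TPM in vehicle (-2.08 log2, adjusted p = 0.0146, and 0.0553 without MTOAC library 2). Of 18 listed 15 were tested. The calls were 1 upward with CPC, 2 upward with AEBDAC, and 2 upward and 1 downward with MTOAC, and 3 upward and 1 downward over the compounds together. Of all tested symbols 0.0333% were called upward with CPC, 0.391% with AEBDAC, 0.791% with MTOAC and 1.11% over the compounds together, and 5.75% and 6.55% were called downward with MTOAC and over the compounds together. The third upward gene in that count was Csrnp1, named after its value was seen. The upward counts with AEBDAC, with MTOAC and over the compounds include Npas4 and are not set against the shares over all symbols. The list's median was 0.41, 0.80 and 0.62 log2 with CPC, AEBDAC and MTOAC, and that of the 8 tested AP-1 members was 0.33, 0.62 and 0.67 log2. The list's median includes Npas4, Arc and Egr3, and the members' median includes Fosb, Fosl2 and Batf3, all with a vehicle median under 1 TPM. These genes passed the filter only through the compound groups, so neither median is support for a shift.

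**Figure D4:**
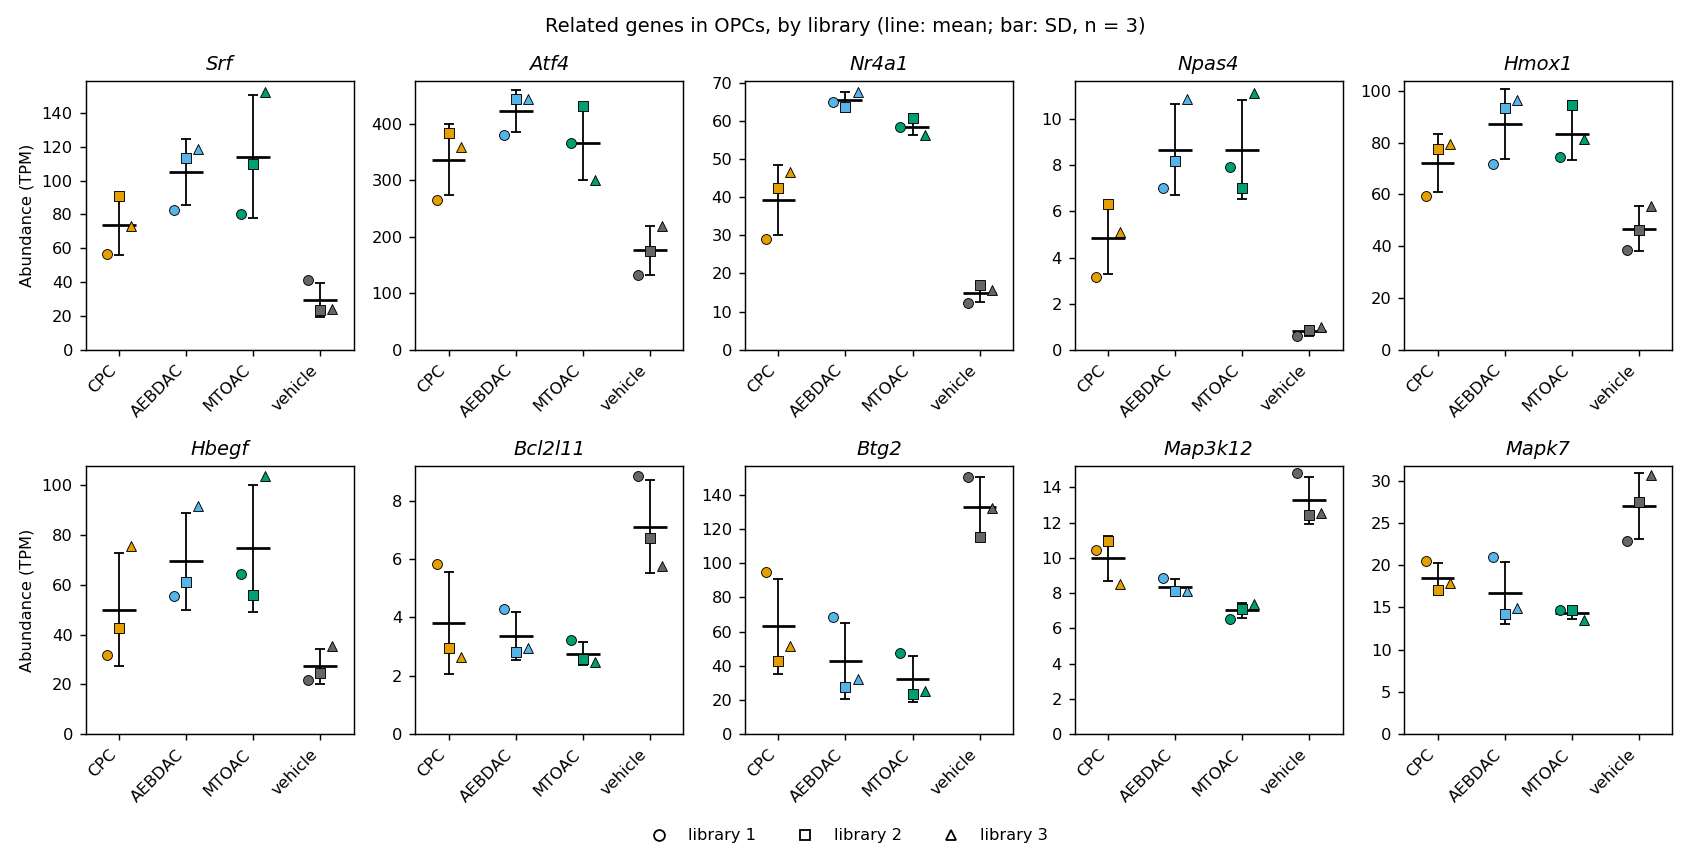
Abundance in TPM of 10 called genes of the related lists in each library (circle, square and triangle for libraries 1, 2 and 3), with the group mean as a line and the SD as a bar (n = 3). Srf, Nr4a1 and Npas4 lie above vehicle in all 9 compound libraries, and Btg2 lies below it, with 23.6 to 47.6 TPM with MTOAC against 115 to 150 TPM in vehicle.

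The genes whose levels varied most like those of Fos over the 12 libraries were, among 7938 symbols with a mean of at least 5 TPM, Srm (spermidine synthase, Pearson r = 0.98 on log2(TPM + 1)), Slc3a2 (a chain of amino acid transporters, 0.96), Zbtb2 (0.96), Slc1a4 (a neutral amino acid transporter, 0.95) and Atxn2l (0.95). After the group means were taken out, r was 0.93 for Srm, 0.86 for Slc3a2, 0.85 for Atxn2l, 0.78 for Zbtb2 and 0.68 for Slc1a4. These are the genes chosen for the highest r over the same libraries, so the values within groups describe that r and are no separate check of it. For Jun the closest were Dusp1 (a phosphatase of MAP kinases, 0.95), Gnl3 (nucleostemin, 0.95), the HMG-box gene Tox3 (0.95), the zinc finger gene Klf6 (0.93) and Sec24b (0.92). Their r within groups lay between 0.86 and 0.93. For Fosl2 the closest were Dnmt3a (0.90), Jun itself (0.89), Vldlr (0.89), Dusp1 (0.88) and Ccn1 (0.87). Dusp1 was thus among the 5 closest genes of both Jun and Fosl2. These correlations are a description: libraries of 1 group share their treatment, and values of 1 library share its scaling.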

How the data were processed

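Poly(A) RNA of 12 OPC libraries was sequenced as 150 bp paired reads, per the labels' protocols. The submitters' processing notes name Salmon and mm10; neither Salmon's version nor its transcript set is stated in the sources used here. Per the file headers, the authors' deposited values are TPM for each gene symbol, scaled within a library, so a rise of abundant transcripts lowers the rest. TPM keep no depth: only a minimum of 20 M reads is stated, and no counting precision can be derived. Totals over the listed symbols were 772637 to 797758 TPM. The housekeeping genes Actb (31.6 to 76.2 TPM) and Eef1a1 (34.0 to 63.2 TPM) had unusually low deposited values, and why was not resolved.

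Computed here: log2(TPM + 1) was fitted with limma 3.58.1 (R 4.3.3; trend, robust), with symbols at 1 TPM or more in at least 3 libraries (12009 of 35385), 1 fit of 4 group means over all 12 libraries, two-sided p-values adjusted by Benjamini and Hochberg over all tested symbols within a comparison, and calls at an adjusted p under 0.05. The script was tested on simulated data. Alternatives were other pseudocounts, filters, scalings and variance models, only the groups compared, the replicate number as a block, and each library left out.

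The members and lists were chosen with earlier results of these data known. All 10 members are named; of each list up to 3 called symbols with the smallest p are named or, with none called, the 2 most abundant; and for Fos, Jun and other members called with a compound the 5 symbols with the highest correlation. Cell types were checked with fixed markers for OPCs, oligodendrocytes, astrocytes, neurons, microglia, pluripotent and mesenchymal cells. The summed astrocyte markers lay between 165 and 233 TPM, neuron markers between 28.5 and 51.8 TPM, oligodendrocyte markers between 2.67 and 13.7 TPM and pluripotency markers between 4.18 and 13.8 TPM over all libraries.

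Replicate numbers come from the titles, which do not say that they mark a shared culture. Libraries with the same number were compared by the correlation of their departures from the group mean. It was 0.34, 0.31 and 0.23 between CPC and vehicle; between AEBDAC and CPC it was 0.28, 0.42 and 0.23; and between MTOAC and AEBDAC it was 0.33, 0.36 and 0.30. All are over 0.1, so these groups met the rule set for pairing. The main fit still had no block, so its intervals and p-values do not use this pairing. The block was fitted only as an alternative, and with it no symbol was called for AEBDAC against CPC or MTOAC against AEBDAC. In the other 3 pairs of groups at least 1 value was lower. No 2 libraries held identical values. Coordinates are from GENCODE M21 on GRCm38, and promoter windows from RefSeq on GRCm38.p6.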

Additional observations from a re-analysis of the deposited data

How the results depend on the processing

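Over the 864 refits of 47 differences of members, 781 kept direction and side of the threshold, 29 lost a call, 14 gained one and 40 changed sign; over 559 refits of 28 called list genes, an alternative chosen after the data were seen, 454 kept the call, 105 lost it and none changed sign. The cause of the changes was not tested unless said. Fos over the 3 compounds was called in all 23 alternatives (adjusted p between 0.00085 and 0.0451 by limma), with MTOAC in 17 of 18 (highest 0.0659, only the groups compared) and with AEBDAC in 11 of 18. Without the filter, which tests more symbols, AEBDAC had 0 members called, MTOAC 1 and the compounds together 1. With only the groups compared, which have fewer libraries, AEBDAC had 0 and MTOAC 0. At 5 TPM, where Fosl2 and Junb drop out, MTOAC and the compounds together had 1 each. MTOAC also had 1 (Fos) with a pseudocount of 0.1, quantile normalization, median centring, mitochondrial genes left out and no intensity trend.

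Under the replicate block AEBDAC had 3 members called (Fos, Jun and Junb), also with quantile normalization. MTOAC had 3 (Fos, Fosl2 and Jun) and the compounds together 4 (Fos, Fosl2, Jun and Junb). This block called 8.93%, 15.9% and 17.6% of all 12009 symbols with AEBDAC, MTOAC and the compounds together, with 225, 245 and 316 symbols upward. AEBDAC and MTOAC did not meet the pairing rule with vehicle, and Fosl2 passed the filter only through the compound groups. With the replicate block and quantile normalization CPC had 1 (Fos, adjusted p = 0.0356 by limma), where 0.958% of all symbols were called. In the paired comparison of CPC with vehicle the block alone changed no member's call. With 1 library left out, members called ranged from 0 to 0 for CPC, 0 to 1 for AEBDAC, 1 to 1 for MTOAC and 1 to 4 for the compounds together.

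Values that changed sign were small and not called. Under quantile normalization, with and without the block, Fosb with CPC was 0.055 log2, Jdp2 0.044 with AEBDAC, 0.065 with MTOAC and 0.14 over the compounds, and for MTOAC against CPC Junb was 0.028 and Jund -0.028. Under median centring Fosb with CPC was 0.13, Jdp2 0.034 with MTOAC and 0.10 over the compounds, and Junb for MTOAC against CPC 0.017. With mitochondrial genes left out Jund for MTOAC against CPC was -0.0048. With 1 library left out, Fosb with CPC ranged from -0.34 to 0.23, Jund from -0.061 to 0.34 with CPC and from -0.053 to 0.40 with MTOAC, Batf3 with MTOAC from -0.11 to 0.44, and Jdp2 from -0.23 to 0.55 with CPC, -0.51 to 0.27 with AEBDAC, -0.55 to 0.23 with MTOAC and -0.43 to 0.35 over the compounds. Between compounds, Fosl2 for AEBDAC against CPC ranged from -0.20 to 1.001, Junb and Jund for MTOAC against CPC from -0.24 to 0.068 and from -0.11 to 0.22, and Fos and Jun for MTOAC against AEBDAC from -0.085 to 0.32 and from -0.16 to 0.24.

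Counts over all symbols moved more. For CPC, 8 became 16 with quantile normalization, 4 with median centring, 1 without the trend, 184 with the replicate block, 115 with both, 0 with only its groups and 1 to 5 with a library left out. For AEBDAC, 153 became 38 without the filter, 68 without the trend, 1072, 907 with both, 3 with only its groups and 9 to 104. For MTOAC, 785 became 404 without the filter, 430 with quantile normalization, 411 with centring, 1904, 1194, 17 and 149 to 573; over the compounds 920 became 552, 598, 549, 2110, 1463 and 169 to 1068. Between compounds 0 became 1 in 5 fits. Upward against downward calls were 47 and 106 for AEBDAC (96 and 86 with quantile normalization, 75 and 51 with centring), 95 and 690 for MTOAC (213 and 217, 236 and 175) and 133 and 787 over the compounds (295 and 303, 296 and 253).

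Depth is not recorded in TPM, so its limit on the low members Fosb, Fosl1, Fosl2 and Atf3 is not known. All intervals rest on 3 libraries a group.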
